A study of Rattus norvegicus with 6 samples.

Results

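Voltage-gated calcium channels were followed across 6 rat insulinoma lines through 10 of their subunit genes, chosen by name as the rows Cacna1a, Cacna1c, Cacna1d, Cacna1e, Cacna1h, Cacnb1, Cacnb2, Cacnb3, Cacna2d1 and Cacna2d2 of a table of 32900 features. RNA was sequenced from INS-1 cells, a rat beta cell line, that carry a human insulin-neomycin resistance transgene and a mouse Ins2-mCherry transgene and were grown in 7.5 mM glucose. The 3 control INS-1 lines (5-9, 2 and 16) have the Prader-Willi syndrome (PWS) imprinted domain deleted on the silent maternal allele, and the 3 PWS INS-1 lines (3, 19-1 and 19-4) have it deleted on both alleles, so that all 6 lines carry the maternal deletion and derive from cells with both transgenes. Each line gave 1 library. Line 5-9 is the parent of the other lines, line 3 has a larger deletion with another proximal breakpoint, and lines 19-1 and 19-4 are subclones of a single line, so p-values measure the spread between these lines and not between independent deletions.

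A voltage-gated calcium channel is built around a pore-forming alpha1 subunit, which senses the membrane voltage and sets the current type. In many of these channels, though not in all types, an intracellular beta subunit and an extracellular, membrane-anchored alpha2delta subunit bring the pore to the surface and tune its gating. In beta cells, closure of potassium channels by glucose metabolism depolarizes the membrane, these channels open, and the calcium that enters triggers exocytosis of insulin granules.

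The oligonucleotides with which the study measures the transcripts of Cacna1a and Cacna1d by RT-droplet digital PCR are shown because of the 5 pore-forming members these had the largest log2 fold changes and the primers fix which exons of each transcript are read. For Cacna1a they lie in exons 47 and 48, and for Cacna1d in exons 38 and 40. They are written 5′ to 3′, and their readout is not analysed here.
Cacna1a forward, exon 47: cacagacagggcagtagttc
Cacna1a reverse, exon 48: ggcgagtaggacacaagcg
Cacna1d forward, exon 38: acggctctcaagatcaagactg
Cacna1d reverse, exon 40: tcaggaaagtggcatagaacttc

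The counts of a line summed to between 26016478 and 36084261, where a read with several alignments or over several genes adds to each. Between 17530149 and 23022637 reads a line aligned once and to one gene. Snrpn, inside the deleted domain, had 3149 to 3956 normalized counts in the control lines and 0 to 3.64 in the PWS lines, Snurf, which shares its reads, had 3159 to 3992 against 0 to 3.64, and the 36 Snord116 features summed to 1827 to 2963 reads against 0 in every PWS line. All 13 beta cell markers were detected, with a summed level of 497449 to 574711 normalized counts in the control lines and 266135 to 467874 in the PWS lines. The neuron markers (3 of 3 detected) summed to 2594 to 2933 against 2538 to 2901 and the alpha cell markers (3 of 5 above 3 reads) to 185 to 218 against 181 to 295, and Irx2, Sst, Prss1, Cdh5 and Ptprc had no read. The delta and PP cell markers summed to at most 13.6, the acinar and duct markers to at most 26.3, the 3 of 5 fibroblast and endothelium markers analysed to at most 3.64 and the immune markers to at most 34.0 normalized counts in any line. The lower summed level of the beta cell markers in the PWS lines came with the differences below, and its part in them was not tested. In bulk RNA, fewer cells with a transcript and less transcript per cell cannot be told apart.

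The question put to each subunit gene is whether its RNA differs between PWS and control lines. The pore genes Cacna1a, Cacna1d and Cacna1c, named together after their values were seen, were 1.32-fold to 1.71-fold higher on average in the PWS lines, the other 2 pore members Cacna1e and Cacna1h were not, and the beta subunit gene Cacnb3 was 1.13-fold higher. The 6 members other than these 4 had intervals that spanned no difference. Over the 15579 genes tested, 0 of the 10 members had an adjusted p under 0.05 by limma, where 0.257% of all genes had one, and 0 by edgeR's quasi-likelihood test, where 0.205% had one, while DESeq2 called 2, Cacna1a and Cacna1d, against a background of 1.46%. Without adjustment 4 members had p under 0.05 by limma, all higher in the PWS lines, where 6.0% of all genes were, and 4 by edgeR, where 1773 of the 15579 genes had one in either direction. At an adjusted p under 0.1, which 0.282% of all genes passed, limma called 1 member, Cacna1a. The groups did not overlap for 3 members, again all higher in the PWS lines, where 8.43% of all genes were.

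**Figure D1:**
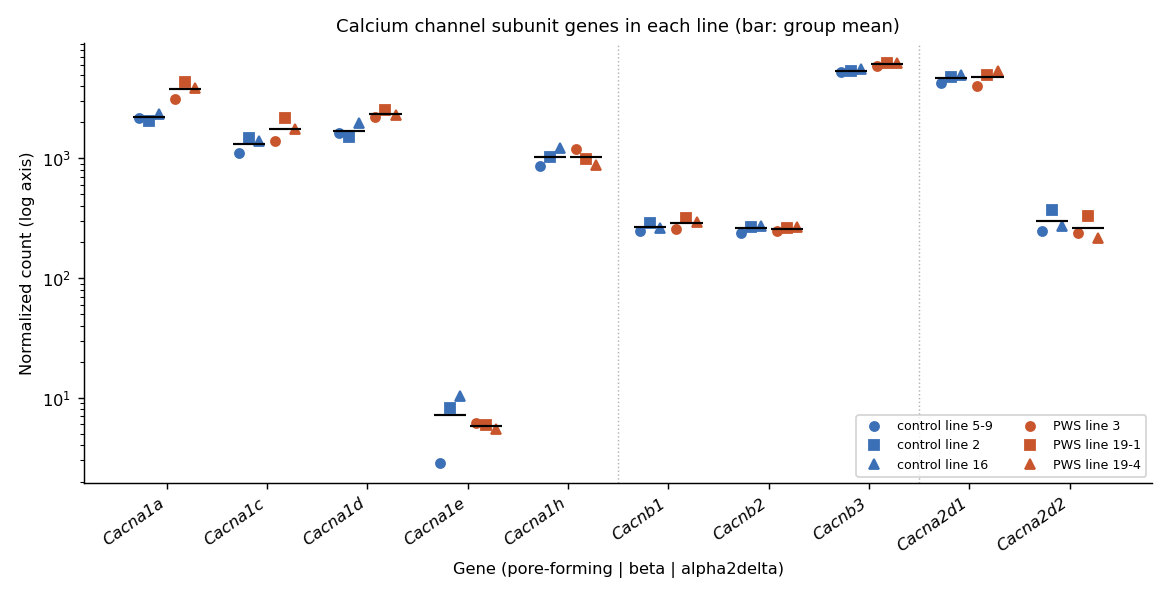
Normalized counts (log axis) of the 10 subunit genes in each line, with control lines in blue, PWS lines in orange and a bar at the mean of 3 lines. The PWS points of Cacna1a, Cacna1d and Cacnb3 all sit above the control points, and those of the other 7 genes overlap them.

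Cacna1a encodes the pore of P/Q-type channels, which trigger fast transmitter release at nerve terminals and carry part of the calcium current of beta cells. Cacna1a had 2184, 2052 and 2365 normalized counts across control lines 5-9, 2 and 16, and 3164, 4333 and 3859 in PWS lines 3, 19-1 and 19-4. The lowest PWS line lay 798 normalized counts above the highest control line, and both subclones lay above line 3. Against the control mean of 2200.2 ± 158 (SD, n = 3) the PWS lines stood at 144%, 197% and 175%, with a mean of 3785 ± 588 (SD, n = 3). The log2 fold change, taken on log2(normalized count + 1) here and below, was 0.77 (SE 0.12, 95% interval 0.51 to 1.04), which is 1.71-fold (1.42 to 2.05), with an adjusted p of 0.0520 by limma. It was 0.0648 by edgeR and 4.46e-07 by DESeq2. Without PWS line 3 the log2 fold change was 0.90 and the adjusted p by limma 0.0127, and with any other line left out the gene did not pass, with a largest adjusted p of 0.328. Of its reads, 99.3% aligned once and to one gene, so reads shared with other genes are few.

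Cacna1d encodes the pore of an L-type channel that opens at fairly negative voltages. Its values were 1621, 1505 and 1979 normalized counts across control lines 5-9, 2 and 16 and 2204, 2529 and 2290 in PWS lines 3, 19-1 and 19-4, so every PWS line was above every control line. The log2 fold change was 0.47 (SE 0.11, 95% interval 0.22 to 0.72), or 1.38-fold (1.16 to 1.64), with an adjusted p of 0.265 by limma, 0.267 by edgeR and 0.0216 by DESeq2. It ranged from 0.38 to 0.58 as each line was left out. Only DESeq2 placed it past the threshold among the settings run.

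Cacna1c encodes the other L-type pore of these cells, the target of dihydropyridine drugs in heart and vessel muscle. It had 1115, 1471 and 1392 normalized counts across control lines 5-9, 2 and 16 and 1390, 2182 and 1748 in PWS lines 3, 19-1 and 19-4. PWS line 3 fell inside the control range, and both subclones lay above it. The log2 fold change was 0.41 (SE 0.17, 95% interval 0.02 to 0.79), with an adjusted p of 0.423 by limma and 0.249 by DESeq2. Leaving out PWS line 19-1 or another line moved it between 0.24 and 0.57, so its size depends on which lines are counted.

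The remaining pore genes did not separate the groups. Cacna1h, the pore of a T-type channel that opens near the resting voltage, had 865, 1020 and 1221 normalized counts across control lines 5-9, 2 and 16 and 1204, 994 and 880 in PWS lines 3, 19-1 and 19-4. Its log2 fold change was −0.01 (95% interval −0.36 to 0.33). Cacna1e, the pore of R-type channels, was close to the detection limit, with 2.85, 8.26 and 10.3 normalized counts across control lines 5-9, 2 and 16 and 6.13, 5.98 and 5.46 in PWS lines 3, 19-1 and 19-4, from 3 to 10 reads a line. Its interval of −1.19 to 0.97 on the log2 scale spans both signs, and a difference was not detectable at this depth.

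Of the beta subunits, only Cacnb3 had groups that did not overlap. Cacnb3 had 5234, 5411 and 5598 normalized counts across control lines 5-9, 2 and 16 and 5864, 6306 and 6267 in PWS lines 3, 19-1 and 19-4. The gap between the groups was 266 normalized counts, and the log2 fold change was 0.18 (SE 0.06, 95% interval 0.03 to 0.33), or 1.13-fold, with an adjusted p of 0.364 by limma. Cacnb1 had 247, 287 and 262 normalized counts in the control lines against 259, 318 and 293 in the PWS lines, in the same order of lines, and a log2 fold change of 0.13 (95% interval −0.15 to 0.40), which ranged from 0.06 to 0.20 as each line was left out and was 0.045 with RSEM. Cacnb2, a beta subunit that is well known from heart L-type channels, had 238, 270 and 273 against 248, 262 and 268, and a log2 fold change of −0.00403 (95% interval −0.25 to 0.24). For both the groups overlapped.

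The alpha2delta genes also overlapped between the groups. Cacna2d1, the target of gabapentin, had 4253, 4793 and 4981 normalized counts across control lines 5-9, 2 and 16 and 3993, 4982 and 5423 in PWS lines 3, 19-1 and 19-4, with the lowest value of all 6 lines in line 3 and the highest in line 19-4. Its log2 fold change was 0.03 (95% interval −0.24 to 0.30), and 85.2% of its reads aligned once and to one gene, against over 99% for the other 9 members. Cacna2d2 had 250, 371 and 275 normalized counts in the control lines and 240, 334 and 216 in the PWS lines, and its log2 fold change was −0.19 (95% interval −0.64 to 0.27). That value moved between −0.37 without PWS line 19-1 and −0.02 without control line 2, so its size rests on single lines.

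**Figure D2:**
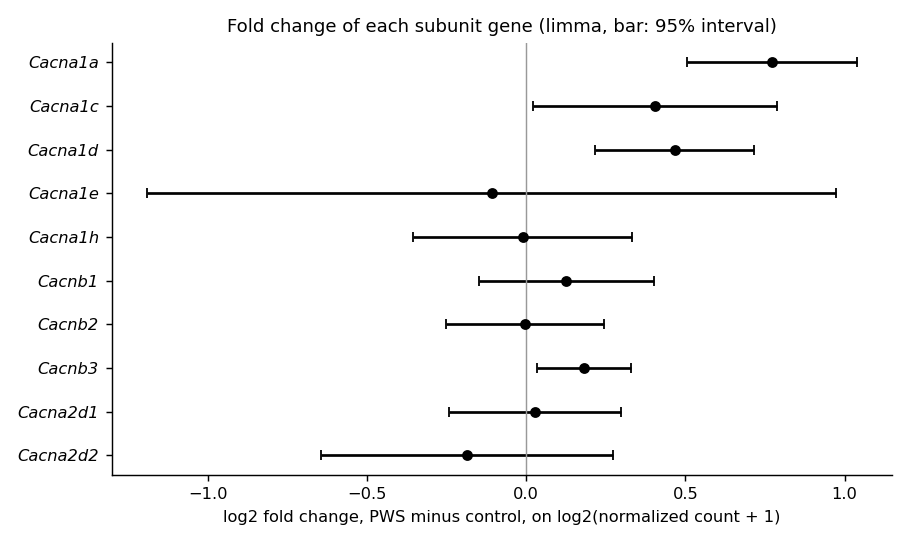
Log2 fold change of each subunit gene, PWS minus control, with its 95% interval from limma over 6 lines. The intervals of Cacna1a (0.51 to 1.04), Cacna1d, Cacna1c and Cacnb3 lie above 0, and the other 6 span it.

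Since the genes did not move alike, their ratios within a line were compared, which do not depend on the scaling between libraries. For a pair of single genes the difference of a ratio between lines does not depend on transcript length either, but a ratio to a sum of genes does. These ratios are a description with no test, and the ratios other than Cacna1a to both L-type genes and Cacnb2 to Cacnb3 were chosen after the values were seen. The log2 ratio of Cacna1a to the sum of Cacna1c and Cacna1d was −0.32, −0.54 and −0.51 in control lines 5-9, 2 and 16 and −0.18, −0.12 and −0.07 in PWS lines 3, 19-1 and 19-4. The P/Q-type gene was thus higher relative to the L-type pair in every PWS line, by 0.33 on average, or 1.26-fold, and the difference was 0.34 with reads that align once and 0.32 with RSEM. Taken singly, the difference was 0.37 against Cacna1c and 0.31 against Cacna1d, and the groups overlapped for neither. Of all reads of the 5 pore members, Cacna1a took 33.9% to 37.7% in the control lines and 39.7% to 43.9% in the PWS lines, with exact Clopper-Pearson 95% limits from 32.7% to 39.0% and from 38.6% to 44.9%, which cover counting error only and depend on transcript length.

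The log2 ratio of Cacnb2 to Cacnb3 was −4.46, −4.33 and −4.36 in control lines 5-9, 2 and 16 and −4.56, −4.59 and −4.55 in PWS lines 3, 19-1 and 19-4, lower by 0.19 on average, and the groups did not overlap. The log2 ratio of Cacna1a to Cacnb3 was −1.26, −1.40 and −1.24 in the control lines and −0.89, −0.54 and −0.70 in the PWS lines, and that of Cacna1a to Cacna2d1 was −0.96, −1.22 and −1.07 against −0.34, −0.20 and −0.49. The alpha1 gene was therefore higher relative to each of these auxiliary subunit genes in every PWS line, by 0.59 and 0.74 on average. Both ratios share Cacna1a, whose own groups did not overlap, so they largely repeat its difference. Between the L-type genes the log2 ratio of Cacna1d to Cacna1c was 0.36 ± 0.28 (SD, n = 3) in the control lines and 0.42 ± 0.23 (SD, n = 3) in the PWS lines, and overlapped. Against Cacna1b, the N-type pore of nerve terminals, which is no member, Cacna1a was 3.00, 2.17 and 2.61 on the log2 scale in the control lines and 3.55, 3.98 and 3.92 in the PWS lines. That difference of 1.22 was the largest of the ratios given. Cacna1b itself was lower on average in the PWS lines, at 273, 454 and 386 against 270, 275 and 255 normalized counts, with groups that overlapped and an adjusted p of 0.413 by limma.

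**Figure D3:**
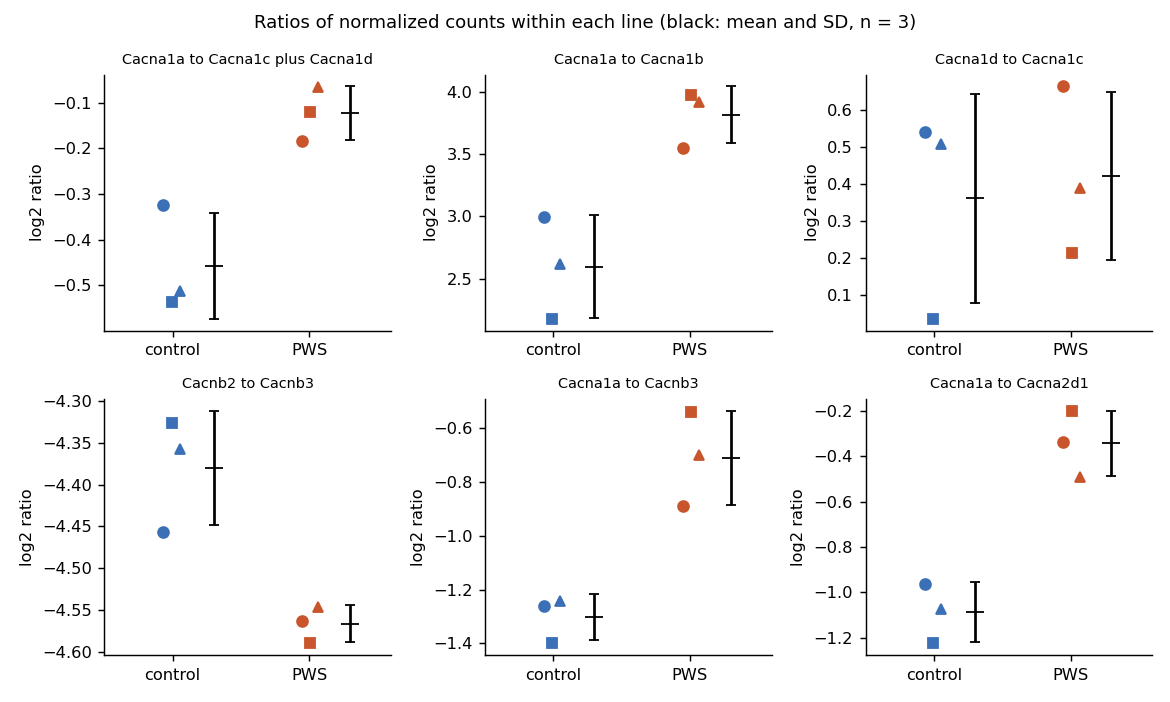
Log2 ratios of normalized counts within each line, one panel per pair of genes, with control lines in blue, PWS lines in orange and the mean and SD of 3 lines in black. Circles, squares and triangles are lines 5-9, 2 and 16 and lines 3, 19-1 and 19-4. The groups overlap only for Cacna1d to Cacna1c, and the ratio of Cacna1a to both L-type genes is higher by 0.33 in the PWS lines.

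The pore members summed to 5787 to 6968 normalized counts in the control lines and 7968 to 10044 in the PWS lines, and did not overlap. The beta members summed to 5720 to 6133 against 6371 to 6886, and did not overlap either. The alpha2delta members summed to 4502 to 5257 against 4233 to 5640, and did overlap. These sums are not divided by length and weight each gene by its read count, so Cacna1a has a large part in the pore sum. Cacnb3 took 90.7% to 91.5% of the beta reads in the control lines and 91.6% to 92.0% in the PWS lines. The beta sum therefore largely repeats the Cacnb3 values.

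The median log2 fold change of the 10 members was 0.08, against −0.00284 over all 15579 genes tested, and 6 were higher and 4 lower on average. All 10 passed the filter on low values, a mean of 5 normalized counts over the 6 lines.

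PWS line 3 had fewer normalized counts than both subclones 19-1 and 19-4 for 7 of the 10 members, as for 31.0% of all genes tested. Line 3 exceeded the highest control line for 3 members, where 22.3% of all genes did, and both subclones did so for 6, where 14.9% of all genes did. For Cacna2d1, one of the 6, line 19-1 exceeded control line 16 by less than 1 normalized count. For Cacna1c the subclones stood at 165% and 132% of the control mean and line 3 at 105%. These orders were noticed in the values, and the difference between line 3 and the subclones was not tested.

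The other subunit genes of the family overlapped between the groups for 10 of the 11 that were tested, of 16 listed. Of the 11, 4 were higher and 7 lower on average, 0 were called by limma, edgeR or DESeq2, and 3 had an unadjusted p under 0.05 by limma, which 11.3% of all genes had, 3 by edgeR and 4 by DESeq2 (1773 and 1618 of all 15579 genes). Cacng4, a TARP-type gamma subunit, had the highest log2 fold change at 0.52 (SE 0.20, adjusted p 0.407), and was the 1 gene of the list whose groups did not overlap, a pattern of 8.43% of all genes with the PWS lines higher and 9.01% with them lower. Cacna1i, the pore of a T-type channel, had the lowest at −1.20 (SE 0.59, adjusted p 0.494 by limma). It had 23.7, 92.7 and 31.8 normalized counts across control lines 5-9, 2 and 16 and 8.18 to 32.3 in the PWS lines. Of the control lines, only line 2 lay outside the PWS range.

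Of the 23 direct regulators of the channels, 20 were tested, 10 higher and 10 lower on average, and 0 were called by limma or edgeR while DESeq2 called 2, where it called 1.46% of all genes. Without adjustment 5 had p under 0.05 by limma and 4 by edgeR (1768 and 1773 of all 15579 genes). Gem, a small GTPase that binds beta subunits and inhibits the channels, had the lowest log2 fold change at −0.75 (SE 0.18, adjusted p 0.265 by limma and 0.0209 by DESeq2), with 255, 325 and 344 normalized counts across control lines 5-9, 2 and 16 and 206, 202 and 145 in PWS lines 3, 19-1 and 19-4. The groups did not overlap, as for 9.01% of all genes with the PWS lines lower. Rimbp2, a presynaptic protein that links these channels to vesicle release sites and is named because DESeq2 called it, had 653, 664 and 841 against 902, 1118 and 1214. Its log2 fold change was 0.58, with an adjusted p of 0.265 by limma, 0.267 by edgeR and 0.0149 by DESeq2. Camk2a had the highest log2 fold change, 0.76 (SE 0.41), at 7.34 to 30.9 normalized counts, and overlapped.

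All 25 calcium pumps, exchangers and store channels with a row were tested, of 26 listed. Of these 16 were higher and 9 lower on average, the median of their log2 fold changes was 0.03, and 7 had an unadjusted p under 0.05 by each of limma, edgeR and DESeq2 (1768, 1773 and 1618 of all 15579 genes), but 0 were called by limma, edgeR or DESeq2. Itpr2, an inositol trisphosphate receptor of the endoplasmic reticulum, had the highest log2 fold change, 0.51 (SE 0.22, adjusted p 0.434).

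Among 20 other voltage-gated and depolarizing channels, 18 were tested, of which 14 were higher and 4 lower on average. The median of their log2 fold changes was 0.19, and the groups did not overlap for 7 genes that were higher and 1 that was lower in the PWS lines, where 8.43% and 9.01% of all genes were so. For 2 of these 7 genes, both sodium channel pores, 17.2% and 11.5% of the reads aligned once and to one gene, and with such reads alone 5 genes of the list in place of 8 had an unadjusted p under 0.05 by limma. Limma and edgeR called 0, with 8 and 7 under an unadjusted p of 0.05 (1768 and 1773 of all 15579 genes), and DESeq2, which called 1.46% of all genes, called 2, Scn2a and Scn3a, which are voltage-gated sodium channel pores named for that reason. Scn2a had 795, 640 and 689 normalized counts across control lines 5-9, 2 and 16 and 957, 1130 and 1088 in PWS lines 3, 19-1 and 19-4, with a log2 fold change of 0.58 (SE 0.11) and an adjusted p of 0.151 by limma. Scn3a had a log2 fold change of 0.34 (SE 0.08).

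**Figure D4:**
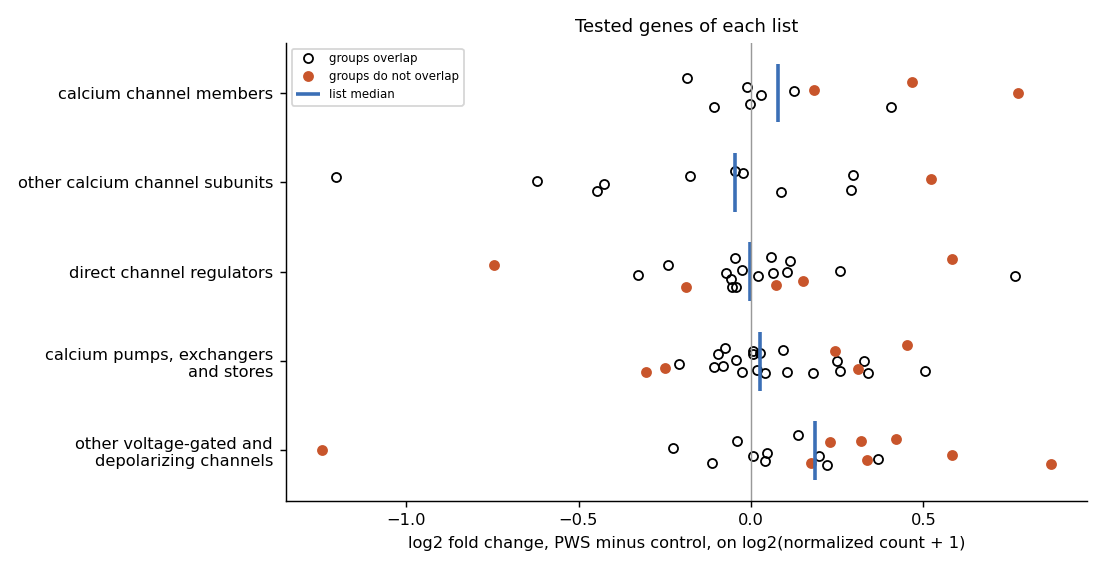
Log2 fold change, PWS minus control, of each tested gene in the 5 lists, with filled points where the groups did not overlap and a blue bar at the list median. The medians lie from −0.04 to 0.19, and 7 of 18 genes of the other voltage-gated and depolarizing channels are filled points above 0.

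The genes whose pattern over the 6 lines was most like that of Cacna1a were sought among 10949 of the 12738 genes that averaged 50 or more normalized counts, those with a gene symbol other than a clone or locus name and outside the lists above, by the root-mean-square difference of centred log2 normalized counts. They were Setd1b (0.0579), Dpysl5 (0.0827), Rtn4r (0.0848), Drc1 (0.0889) and Nckap5l (0.0899), where the values in brackets are those differences in log2 units. Their log2 fold changes were 0.84, 0.67, 0.91, 0.86 and 0.72, and 12.7% of the reads of Dpysl5 aligned once and to one gene. For Cacna1d the nearest were Ncoa6 (0.0423), Nf1 (0.0477), Sel1l3 (0.0502), Ankrd11 (0.0533) and Srrm1 (0.0617), with log2 fold changes from 0.38 to 0.48. With 6 lines, many genes can share such a pattern.

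RefSeq promoter windows on GRCr8, from 250 bases before to 50 after an annotated start, were found for 8 of the 10 members. The starts given for Cacna1a and Cacna1d lie 0 and 1 bases from an ATG, so the bases before them are not shown as promoters. The 250 bases before the start of Cacnb3, the beta subunit gene whose groups did not overlap, are chr7:131666301-131666550 on the plus strand, written 5′ to 3′.
Cacnb3 promoter: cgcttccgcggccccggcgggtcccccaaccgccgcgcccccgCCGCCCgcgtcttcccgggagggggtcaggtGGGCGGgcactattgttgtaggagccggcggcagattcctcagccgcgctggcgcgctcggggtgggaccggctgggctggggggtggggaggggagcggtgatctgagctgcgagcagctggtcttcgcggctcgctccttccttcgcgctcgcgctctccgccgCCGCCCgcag
Capitals mark the GC box GGGCGG on either strand, which occurs 3 times here with no overlap and in 30.5% of 33469 windows of 250 bases. CCAAT and the cyclic AMP core element TGACG were not found in these letters on either strand, and occur in 34.0% and 18.2% of the windows.

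Cacna1a was higher in the PWS lines under all 18 alternatives, from 0.67 to 0.90 on the log2 scale, and its adjusted p passed 0.05 in 4 of them. Cacna1d was higher under all 18, from 0.38 to 0.58, and passed in 1. Cacna1a lies close to the threshold of limma, so whether it is called depends on the setting while its direction did not change.

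**Figure D5:**
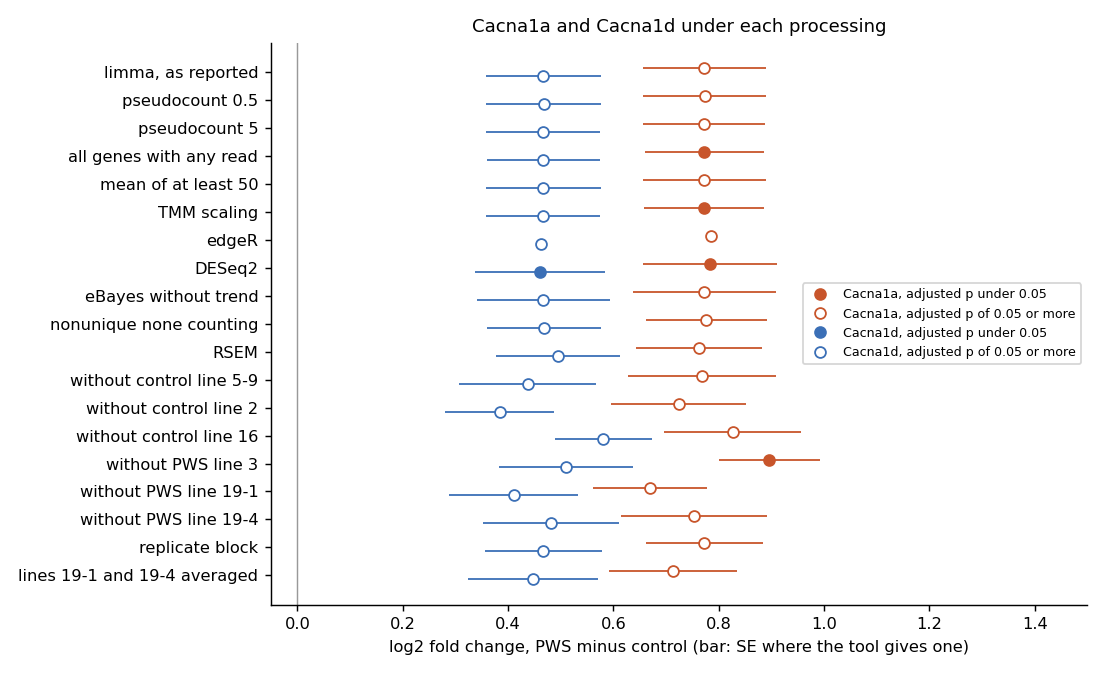
Log2 fold change of Cacna1a (orange) and Cacna1d (blue), PWS minus control, as reported and under each of 18 alternatives, with the SE where the tool gives one and filled points where the adjusted p was under 0.05. Cacna1a stays between 0.67 and 0.90 and Cacna1d between 0.38 and 0.58.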

How the data were processed

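Total RNA of 3 control and 3 PWS INS-1 lines was analysed, with 1 library per line. The authors made stranded, ribosome-depleted libraries, used cutadapt for trimming and STAR 2.7.0e for alignment to the Ensembl v98 rat genome with added transgenes, and counted reads with HTSeq 0.11.2 or RSEM 1.3.1. The deposited values are a signal, namely counts divided by DESeq2 size factors. Of the HTSeq values, 100% were whole multiples (within 1e-06) of what 1 read is worth, so reads were recovered. The deposited fold changes and p-values of the authors' own comparison were not used. Lines 19-1 and 19-4 are subclones of line 19.

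Nonunique all counting, in which a read counts at every place it aligns and for every gene it overlaps, gave the reported values. The comparison of PWS with control lines used limma 3.58.1 (R 4.3.3), with a mean-variance trend in eBayes, after a log2 transform of the normalized count plus 1. It covered 15579 genes that averaged 5 or more over the lines, with Benjamini-Hochberg adjustment over all of them and a threshold of 0.05. edgeR 4.0.16 (quasi-likelihood) and DESeq2 1.42.0 were run on recovered reads. The limma, edgeR and DESeq2 fits were each tried on simulated counts, and the other steps were not. For a single value, 3 lines against 3 cannot give an exact two-sided permutation p under 0.1. Named beside the members are the highest and lowest log2 fold change of each other list, any gene past the threshold, and the 5 genes most like Cacna1a and Cacna1d. A few genes that the rule picks are left out and not reported here. The members and lists were chosen with earlier results of these data known. Transcript lengths were not used, so sums, read shares and ratios over several genes are weighted by length.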

Additional observations from a re-analysis of the deposited data

How the results depend on the processing

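Over all genes limma called 40 and the alternatives 9 (mean of at least 50), 16 (nonunique none), 12 (RSEM) and 228 (DESeq2), with 33 to 55 as each line was left out; the rest stayed within 1.5 times. Of the 10 members, none passed in limma as reported, 1 (Cacna1a) with all genes with any read, with TMM scaling and at an adjusted p under 0.1, a threshold chosen after seeing the data that called 44 genes, 2 (Cacna1a and Cacna1d) with DESeq2, and 0 to 1 as each line was left out. DESeq2 called 2 direct regulators and 2 other depolarizing channels, and no other alternative called a gene of the other lists. Log2 fold changes near 0 turned sign: Cacna1e, −0.58 to 0.20, Cacna1h, −0.13 to 0.12, Cacnb2, −0.067 to 0.032, and Cacna2d1, −0.065 to 0.16, as each line was left out, Cacna1h with RSEM (0.0088) and with the subclones averaged (0.051), and Cacna2d1 with the subclones averaged (−0.034). Cacna1e has no value at a mean of at least 50 or with RSEM. The difference in the ratio of Cacna1a to both L-type genes was 0.29 to 0.40, and that of Cacnb2 to Cacnb3 was −0.23 to −0.16, as each line was left out. The causes were not tested.

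Replicate numbers do not pair the lines (correlation of same-numbered deviations 0.00345 to 0.0467); with a replicate block 36 genes and 0 members passed. No division by transcript length could be made.

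Lines 19-1 and 19-4 share a parent clone, so the 3 PWS lines are not independent deletions; with them averaged, 35 genes and 0 members passed. Depth limits Cacna1e, with 3 to 10 reads a line.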
